A study of Mus musculus with 6 samples.

Results

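The genes described here are 33 components of the endoplasmic reticulum (ER) folding machinery and of the unfolded protein response, of 30281 gene symbols in the deposited table. They were taken from a list of symbols drawn up with earlier results of these data known, and 2 of them, Crebrf and Ero1l, were chosen directly on their response to rapamycin in these libraries, so their rapamycin values are given as a description without a test. By role the list holds 9 chaperones and co-chaperones, 2 lectin chaperones, 6 oxidoreductases of disulfide bonds, 3 translocon genes, 8 genes of ER-associated degradation (ERAD) and 5 sensors, transcription factors and other regulators. All 33 were in the table, through 127 transcripts, and 32 passed the filter on low counts in the kidney cells. The exception was Derl3.

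Proteins that enter the secretory pathway are threaded through the Sec61 channel into the ER, where Hsp70- and Hsp90-type chaperones, lectins that read N-glycans and disulfide isomerases fold them. Proteins that do not fold are passed back to the cytosol by ERAD, ubiquitinated and degraded. When unfolded proteins build up, the membrane sensors IRE1 (gene Ern1), ATF6 and PERK start the unfolded protein response: IRE1 splices the Xbp1 mRNA, ATF6 is cleaved to release a transcription factor, and PERK phosphorylates eIF2 alpha, which slows translation and favours the translation of ATF4. XBP1 and ATF6 are known to switch on chaperone and ERAD genes through promoter elements called ER stress response elements (ERSE). The kinase complex mTORC1, which rapamycin inhibits and the TSC1-TSC2 complex restrains, drives protein synthesis.

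RNA-Seq was performed on 6 mouse libraries, with 1 library per condition. There was 1 library of Tsc2-/- p53-/- mouse embryonic fibroblasts (MEFs) and 1 of Tsc2+/+ p53-/- MEFs, both with no treatment. The other 4 came from a pair of mouse lines of epithelial cells of the kidney, MKOC and TJ, both given as Tsc2-null. TJ is a tumor line from a secondary tumor in C57BL6 mice, and each line was left untreated (diluent) or given 100 nM rapamycin for 18 hours in serum-free medium. No library is a Tsc2-expressing kidney control, and each line is 1 cell line, so the effect of its genotype cannot be told apart from other properties of the line.

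Estimated counts per library lay between 22887020 and 37505004. Tsc2 RNA was present in all 6 libraries, at 22.6 TPM (a level scaled for transcript length and library size) in the Tsc2+/+ MEFs, 10.5 TPM in the Tsc2-/- MEFs and 19.1 to 49.1 TPM in the kidney cells. Trp53 RNA was likewise present, at 26.3 and 28.55 TPM, in the Tsc2+/+ and Tsc2-/- MEF libraries, both labelled p53-/-. Genotypes are used as labelled. The 9 fibroblast markers summed to 1824 and 2505 TPM in the MEF libraries and to at most 52.2 TPM in the kidney libraries. Of 9 kidney epithelial markers, 7 were at or above 10 TPM in each kidney library, while the epithelial markers Epcam and Krt19 were below 1 TPM there. The 5 endothelial and the 5 leukocyte markers summed to at most 4.34 and 34.9 TPM in any library. Fewer cells of a type and less RNA per cell cannot be told apart in such bulk samples.

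Promoters of 28 of the 33 genes, from 250 bases before to 50 bases after the start, were matched in RefSeq (GRCm38.p6). Both strands were searched for the ERSE (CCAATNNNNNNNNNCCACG), which was found in 10 of the 28 genes and in 0.119% of all 32851 promoters. The shorter ERSE-II (ATTGGNCCACG) was found in Dnajb11 and Herpud1 and in 0.0365% of all promoters. The UPR element TGACGTGG was in none of the 28 genes and in 0.676% of all promoters, TGACGTGA was in Hspa5 and in 0.441%, and the ATF4-CHOP element TGATGNAAT was in none of the 28 and in 0.965%. The letters of the ERSE and ERSE-II do not overlap in any of these promoters. The sequences below are those of the genes with such an element whose RNA passed the rapamycin test described further on, plus Hsp90b1, which was the gene with 2 matches. Each is read 5′ to 3′ in the direction of the gene, and capitals mark the fixed letters of each ERSE or ERSE-II, which read CGTGG and ATTGG where the element lies on the opposite strand.
Hspa5, chr2:34771840-34772139 (plus strand): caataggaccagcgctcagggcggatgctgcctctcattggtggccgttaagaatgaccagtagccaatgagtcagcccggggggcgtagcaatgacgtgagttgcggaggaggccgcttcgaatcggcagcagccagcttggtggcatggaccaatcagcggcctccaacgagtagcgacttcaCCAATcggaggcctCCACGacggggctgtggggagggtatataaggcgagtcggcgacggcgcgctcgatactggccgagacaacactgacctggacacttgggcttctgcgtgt
Hsp90b1, chr10:86705395-86705694 (minus strand): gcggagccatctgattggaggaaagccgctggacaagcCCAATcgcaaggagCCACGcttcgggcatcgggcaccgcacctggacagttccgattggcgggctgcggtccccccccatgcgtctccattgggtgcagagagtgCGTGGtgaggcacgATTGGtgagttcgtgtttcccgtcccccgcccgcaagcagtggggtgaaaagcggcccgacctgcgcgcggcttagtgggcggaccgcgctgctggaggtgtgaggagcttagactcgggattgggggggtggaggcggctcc
Calr, chr8:84846882-84847181 (minus strand): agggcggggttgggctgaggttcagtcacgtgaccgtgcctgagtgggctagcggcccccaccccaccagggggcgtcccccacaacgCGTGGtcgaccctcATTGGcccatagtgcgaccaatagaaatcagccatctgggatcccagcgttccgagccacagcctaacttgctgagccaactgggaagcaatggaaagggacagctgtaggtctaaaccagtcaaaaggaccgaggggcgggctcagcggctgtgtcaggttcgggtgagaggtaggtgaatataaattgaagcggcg
Dnajb11, chr16:22857595-22857894 (plus strand): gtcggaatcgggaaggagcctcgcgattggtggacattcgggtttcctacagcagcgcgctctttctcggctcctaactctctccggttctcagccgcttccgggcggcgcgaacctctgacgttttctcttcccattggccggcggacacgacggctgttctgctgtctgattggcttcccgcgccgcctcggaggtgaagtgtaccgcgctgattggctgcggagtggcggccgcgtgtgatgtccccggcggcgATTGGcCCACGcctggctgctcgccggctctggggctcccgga
Herpud1, chr8:94386179-94386478 (plus strand): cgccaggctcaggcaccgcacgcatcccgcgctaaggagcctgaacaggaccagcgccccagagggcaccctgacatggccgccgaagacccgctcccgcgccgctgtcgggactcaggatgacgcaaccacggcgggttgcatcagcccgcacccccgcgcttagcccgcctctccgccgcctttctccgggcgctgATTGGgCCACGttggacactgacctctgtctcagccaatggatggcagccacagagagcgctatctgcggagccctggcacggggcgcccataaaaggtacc
Syvn1, chr19:6046326-6046625 (plus strand): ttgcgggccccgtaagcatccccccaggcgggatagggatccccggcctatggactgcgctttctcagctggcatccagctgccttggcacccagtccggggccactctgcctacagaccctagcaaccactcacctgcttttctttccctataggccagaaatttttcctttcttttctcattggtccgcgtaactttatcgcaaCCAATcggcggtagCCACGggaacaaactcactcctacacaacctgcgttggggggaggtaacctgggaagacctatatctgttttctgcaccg
Ero1lb, chr13:12565633-12565932 (plus strand): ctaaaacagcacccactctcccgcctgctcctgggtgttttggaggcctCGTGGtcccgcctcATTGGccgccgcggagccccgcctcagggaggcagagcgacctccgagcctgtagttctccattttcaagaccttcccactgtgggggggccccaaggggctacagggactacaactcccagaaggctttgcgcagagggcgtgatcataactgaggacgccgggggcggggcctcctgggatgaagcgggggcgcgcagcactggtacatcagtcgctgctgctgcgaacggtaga

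Relative to the RefSeq start, the ERSE lay at -65 to -47 in Hspa5 and at -44 to -26 in Syvn1, and on the opposite strand at -162 to -144 in Calr. Hsp90b1 had one at -212 to -194 and one on the opposite strand at -107 to -89. The ERSE-II of Herpud1 lay at -52 to -42, and that of Dnajb11 was past the start, at 7 to 17. In Ero1lb, which RefSeq names Ero1b, the element was also on the opposite strand, at -201 to -183. The other ERSE were in Canx, Pdia6, Dnajc3, Creld2 and Derl3. A match describes letters in this window and is not evidence of binding.

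Levels differed widely between the 33 genes, on the TPM scale. The most abundant were the lectin Calr, with 604 to 988 TPM over the 6 libraries, the Hsp70-type chaperone Hspa5 (BiP), with 193 to 982 TPM, the Hsp90-type chaperone Hsp90b1 (GRP94), with 336 to 594 TPM, the lectin Canx, with 319 to 514 TPM, and the isomerases Pdia3 and P4hb, with 302 to 527 TPM and 232 to 693 TPM. Calr held the first place in all libraries but the Tsc2+/+ MEFs, where Hspa5 did. At the other end, the oxidase Ero1lb had 3.07 to 7.34 TPM, against 70.2 to 437 TPM of its paralog Ero1l. Derl3, a derlin of secretory tissues, had at most 4 estimated counts in any library, up to 0.224 TPM, and was at 0 in 3 of the kidney libraries, where 3 counts is the floor. The members together, Ero1l included, summed to 5123 TPM in Tsc2+/+ MEFs, 5893 TPM in Tsc2-/- MEFs, 4205 and 4775 TPM in untreated MKOC and TJ cells and 3409 and 3808 TPM in the treated ones. As a share of estimated counts the MEF libraries stood in the opposite order, with 1.04% in Tsc2+/+ and 0.943% in Tsc2-/- cells. Of the MKOC and TJ sums in TPM, Ero1l, chosen on its fall with rapamycin, held 312 and 437 untreated and 70.2 and 72.5 treated. Crebrf, chosen on its rise, held at most 33.6 TPM. The lower sums of the treated cells are thus not independent of this choice.

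**Figure D1:**
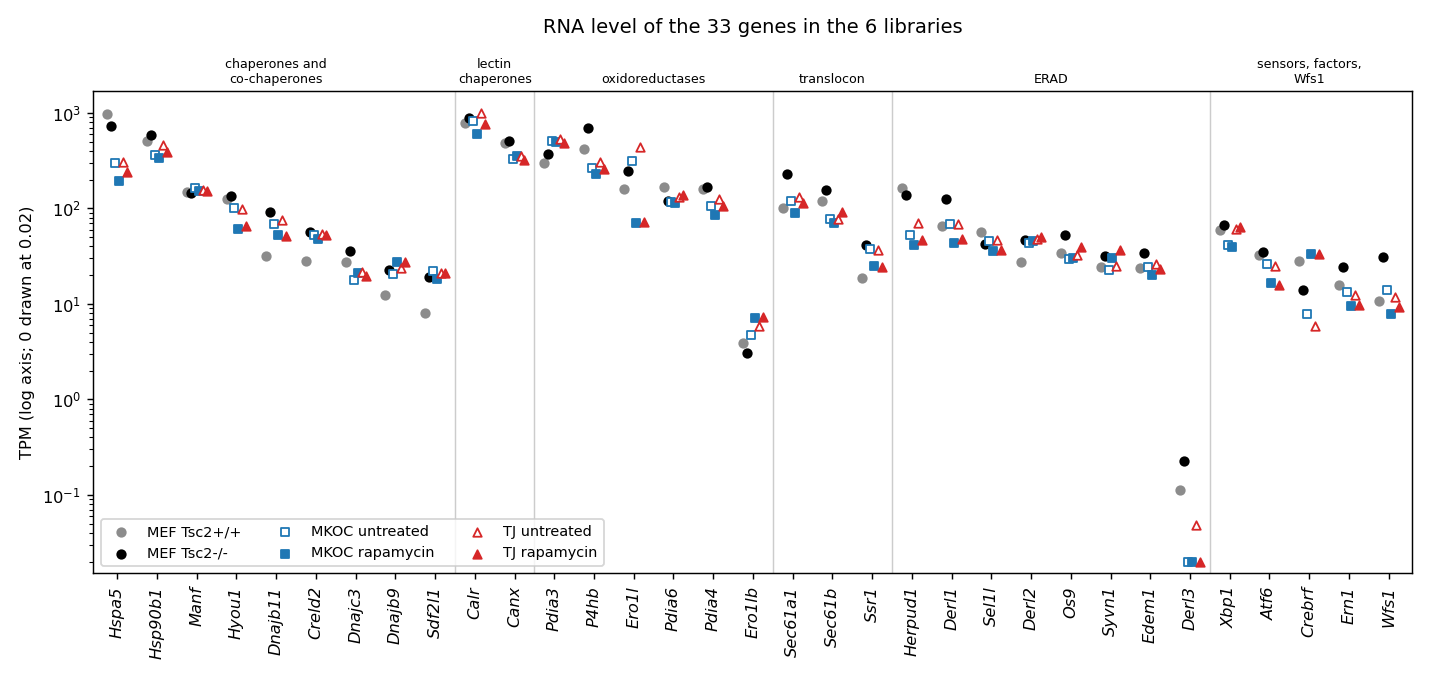
TPM (log axis) of the 33 genes, grouped by role, with 1 point per gene and library and values of 0 drawn at 0.02. Calr, Hspa5 and Hsp90b1 sit near the top in all libraries, Ero1lb sits between 3.07 and 7.34 TPM and Derl3 is at or near 0, while Ero1l and Crebrf separate the untreated from the rapamycin libraries of both kidney lines.

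Rapamycin was compared with no treatment in the kidney cells, to see which ER genes respond when mTORC1 is inhibited in cells labelled Tsc2-null. Of the 30 genes that could be tested (Crebrf, Ero1l and Derl3 aside), 13 were lower and 2 were higher with rapamycin at an adjusted p under 0.05 by edgeR's quasi-likelihood test in a model of treatment and cell line, adjusted by Benjamini-Hochberg. The other 15 did not pass. Over all 12952 genes tested, 34.9% passed, 17.4% lower and 17.5% higher, so 43.3% of the members against 17.4% of all genes were lower and 6.67% against 17.5% were higher. Since the list was made with earlier results known, these shares describe its members and are not independent support. The log2 changes of the 30 ranged from -0.69 to 0.47, with a median of -0.21 against 0.02 over all genes, and 23 of the 30 against 48.4% of all genes were below 0. The largest falls were thus less than 2-fold. The 2 lines are the only replicates, and the labels name no separate cultures within a line, so the p-values measure only the spread between these libraries. Without the cell line in the model, 4 of the 30 were lower (Hyou1, Atf6, Ssr1 and Derl1) and 0 were higher at an adjusted p under 0.05, against 5.53% and 4.32% of all genes. At an unadjusted p under 0.05, 10 were lower and 2 higher in that model, against 15.6% and 14.4%. The summed kidney epithelial markers were also higher with rapamycin, from 1461 to 2109 TPM in MKOC cells and from 1677 to 2502 TPM in TJ cells. So were the summed fibroblast markers, from 26.7 to 52.2 TPM and from 7.83 to 13.3 TPM, with at most 2 of 9 at or above 1 TPM, and the summed mesothelial markers, from 80.7 to 151.7 TPM and from 71.0 to 99.05 TPM, where Msln was the 1 marker of 7 at or above 1 TPM. The part of these markers in the results was not tested.

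**Figure D2:**
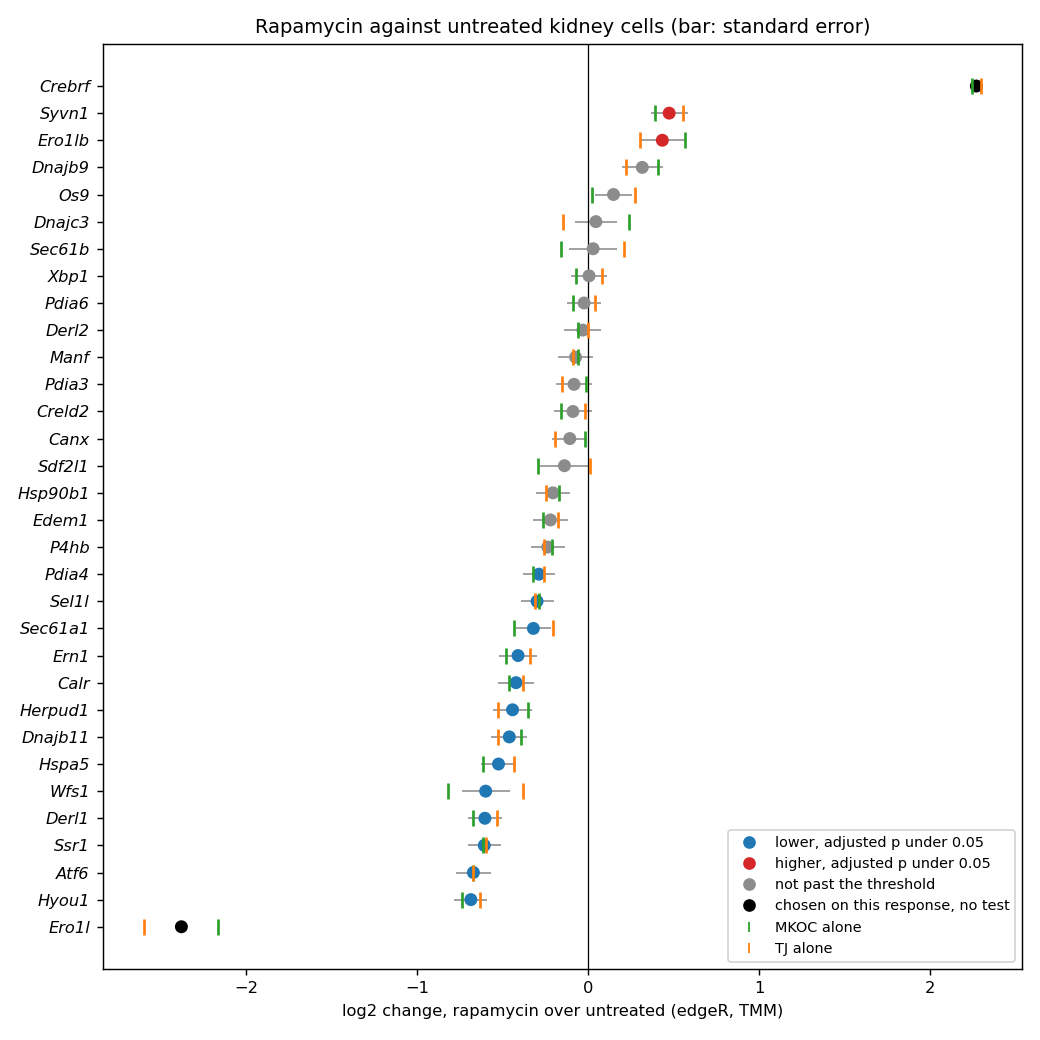
Log2 change with rapamycin of the 32 measurable genes, as the edgeR estimate over both kidney lines (points, with standard error for the 30 tested genes) and in each line alone (ticks). Hyou1, Atf6, Ssr1, Derl1 and Wfs1 lie furthest below 0 among the tested genes, Syvn1 and Ero1lb are above 0, and Crebrf and Ero1l, chosen on this response, are shown without a test.

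Among the 9 chaperones and co-chaperones, 3 were lower with rapamycin, against 17.4% of all genes. Hyou1 (GRP170, chr9:44379490-44392369, plus strand), a large relative of Hsp70 that exchanges nucleotides on BiP, had 99.9 TPM untreated and 61.2 TPM with rapamycin in MKOC cells, and 99.6 and 65.1 TPM in TJ cells. Both treated libraries were below both untreated ones (log2 change -0.69, standard error 0.10, adjusted p = 0.000606 by edgeR). Hspa5 (chr2:34771970-34777547, plus strand), the central chaperone of the ER lumen, had 296 TPM untreated and 193 TPM with rapamycin in MKOC cells, and 309.6 and 239.7 TPM in TJ cells. It too was lower in both treated libraries (log2 change -0.52, standard error 0.10, adjusted p = 0.00319), by 1.54-fold in MKOC and 1.29-fold in TJ cells on the TPM scale. Dnajb11 (ERdj3), a J-domain co-chaperone that delivers unfolded proteins to BiP, fell from 69.5 to 53.2 TPM in MKOC cells and from 74.8 to 51.9 TPM in TJ cells (log2 change -0.46, standard error 0.11, adjusted p = 0.00788).

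The other chaperones did not pass the test. Hsp90b1 had 366 TPM untreated and 336 TPM with rapamycin in MKOC cells, and 458 and 391 TPM in TJ cells, lower with rapamycin within each line but overlapping between the groups (log2 change -0.21, standard error 0.10, adjusted p = 0.141). The J-domain co-chaperone Dnajb9 (ERdj4) had a positive log2 change of 0.32 (standard error 0.12, adjusted p = 0.0663 by edgeR), and passed with upper-quartile normalization (adjusted p = 0.0467 by edgeR) but under none of the other 5 models run, where adjusted p lay between 0.0537 and 0.237. Manf, a small secreted protein that binds BiP, stayed within 151 to 166 TPM in the kidney libraries, with a log2 change of -0.07 (standard error 0.10). The Dnajb11 partner Sdf2l1 and the ER stress-induced Creld2 had log2 changes of -0.14 and -0.09 with standard errors of 0.15 and 0.11. Dnajc3 (p58IPK) had log2 values of opposite sign, 0.24 in MKOC and -0.15 in TJ cells. The 9 genes thus gave a median log2 change of -0.14.

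Of the pair of lectin chaperones that hold glycoproteins during folding, Calr (calreticulin) was lower with rapamycin. It had 825 TPM untreated and 604 TPM with rapamycin in MKOC cells, and 988 and 765 TPM in TJ cells, with both treated values below both untreated ones (log2 change -0.42, standard error 0.10, adjusted p = 0.0107 by edgeR). Its membrane-bound counterpart Canx (calnexin) had 328 TPM untreated and 353 TPM with rapamycin in MKOC cells, and 354 and 319 TPM in TJ cells, and its treated and untreated libraries overlapped (log2 change -0.11, standard error 0.10, adjusted p = 0.452).

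The oxidoreductases, which form and rearrange disulfide bonds, had 1 gene lower and 1 higher among 5 tested, shares near the 17.4% and 17.5% of all genes. Pdia4 (ERp72) fell within each line, from 105 to 84.9 TPM in MKOC cells and from 127 to 107 TPM in TJ cells, with a treated TJ value just above the untreated MKOC value (log2 change -0.29, standard error 0.10, adjusted p = 0.0401 by edgeR). P4hb (protein disulfide isomerase) had 267 TPM untreated and 232 TPM with rapamycin in MKOC cells, and 305 and 256 TPM in TJ cells, values that did not overlap but did not pass (log2 change -0.24, standard error 0.10, adjusted p = 0.0866). Pdia3 (ERp57), which works with Calr and Canx, and Pdia6 had log2 changes of -0.08 and -0.02, each with a standard error of 0.10. Ero1lb, one of the oxidases that recharge these isomerases, rose from 4.78 to 7.13 TPM in MKOC cells and from 5.92 to 7.34 TPM in TJ cells (log2 change 0.43, standard error 0.14, adjusted p = 0.0351).

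Ero1l (chr14:45283087-45318771, minus strand), the other oxidase and 1 of the 2 genes chosen on this response, had 312 TPM untreated and 70.2 TPM with rapamycin in MKOC cells, and 437 and 72.5 TPM in TJ cells. The ratio of untreated to treated TPM was 4.45 in MKOC and 6.03 in TJ cells, and the fitted log2 change was -2.38. Among all tested genes, 43 had a lower log2 change. In the order of TPM over the 33 genes it held place 5 in untreated MKOC and 4 in untreated TJ cells, and places 11 and 12 in the treated ones. Crebrf (chr17:26715650-26776635, plus strand), a regulator of the ER membrane factor CREB3, was the other gene chosen on this response and moved the opposite way, with 7.78 TPM untreated and 32.9 TPM with rapamycin in MKOC cells, and 5.93 and 33.6 TPM in TJ cells. Its TPM was 4.23 times as high with rapamycin in MKOC and 5.67 times in TJ cells, the fitted log2 change was 2.27, and 42 tested genes had a higher one. The promoters of both genes held none of the elements searched. The 2 oxidases thus ended at 70.2 and 7.13 TPM in treated MKOC cells, and at 72.5 and 7.34 TPM in treated TJ cells.

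Of the 3 translocon genes, 2 were lower with rapamycin, against 17.4% of all genes. Ssr1 (chr13:37966605-37994217, minus strand), a subunit of the translocon-associated TRAP complex, fell from 37.6 to 24.7 TPM in MKOC cells and from 37.0 to 24.5 TPM in TJ cells (log2 change -0.61, standard error 0.10, adjusted p = 0.00107 by edgeR). Sec61a1, the pore of the Sec61 channel, had 119.8 TPM untreated and 89.7 TPM with rapamycin in MKOC cells, and 131 and 115 TPM in TJ cells (log2 change -0.32, standard error 0.10, adjusted p = 0.0332), and its lowest untreated and highest treated values, 119.8 and 115 TPM, were close. Sec61b, a small subunit of the same channel, was lower in treated MKOC cells (76.8 and 69.7 TPM) and higher in treated TJ cells (77.7 and 90.8 TPM), and did not pass (adjusted p = 0.899).

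In ERAD, 3 of the 7 tested genes were lower and 1 was higher, against 17.4% and 17.5% of all genes. Derl1 (chr15:57869502-57892448, minus strand), a membrane protein of the retrotranslocation machinery, fell from 68.9 to 43.4 TPM in MKOC cells and from 68.8 to 47.8 TPM in TJ cells (log2 change -0.60, standard error 0.10, adjusted p = 0.0016 by edgeR). Herpud1 (HERP), an ER membrane scaffold of ERAD, had 53.0 TPM untreated and 41.4 TPM with rapamycin in MKOC cells, and 71.1 and 46.6 TPM in TJ cells (log2 change -0.44, standard error 0.11, adjusted p = 0.0122). Sel1l and Syvn1 encode partners in a single complex, the adaptor SEL1L and the ubiquitin ligase HRD1, and went opposite ways. Sel1l fell from 45.9 to 36.0 TPM in MKOC cells and from 47.2 to 37.0 TPM in TJ cells (log2 change -0.30, standard error 0.10, adjusted p = 0.0358). Syvn1 rose from 22.7 to 30.0 TPM in MKOC cells and from 24.9 to 36.7 TPM in TJ cells (log2 change 0.47, standard error 0.11, adjusted p = 0.00784), with both treated libraries above both untreated ones. The mannosidase-like Edem1 (log2 change -0.22, adjusted p = 0.123), Derl2 (-0.03, adjusted p = 0.855) and the lectin Os9 (0.15, adjusted p = 0.327) did not pass.

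Of the 4 tested sensors and regulators, 3 were lower, against 17.4% of all genes. Atf6 (chr1:170704674-170867771, minus strand), the precursor of the cleaved transcription factor, fell from 26.03 to 16.5 TPM in MKOC cells and from 25.2 to 15.9 TPM in TJ cells (log2 change -0.67, standard error 0.10, adjusted p = 0.000882 by edgeR), and the change was -0.67 in each line. Ern1 (IRE1 alpha) fell from 13.2 to 9.58 TPM in MKOC cells and from 12.3 to 9.77 TPM in TJ cells (log2 change -0.41, standard error 0.11, adjusted p = 0.0161). Wfs1 (wolframin), a membrane protein of the ER, had 13.9 TPM untreated and 7.90 TPM with rapamycin in MKOC cells, and 11.9 and 9.18 TPM in TJ cells, a larger change in MKOC (log2 -0.82) than in TJ cells (log2 -0.38), with a fitted log2 change -0.60, standard error 0.14, adjusted p = 0.00858. Xbp1, the substrate of IRE1, had 41.7 TPM untreated and 39.7 TPM with rapamycin in MKOC cells, and 60.5 and 63.7 TPM in TJ cells, with a log2 change of 0.00 (standard error 0.11, adjusted p = 0.978). IRE1 removes a very short intron from this mRNA, and the shortest intron of the 4 listed Xbp1 transcripts is 300 bases in GENCODE M21, so the IRE1-spliced and unspliced forms could not be told apart. Besides the model without the cell line, Pdia4 and Sec61a1 lost the adjusted p under 0.05 with upper-quartile normalization, DESeq2 and limma, Sel1l with upper-quartile normalization and DESeq2, Ern1 with limma, and Ero1lb with DESeq2 and with limma. Hyou1, Atf6, Ssr1 and Derl1 kept it in all 6 other models run.

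**Figure D3:**
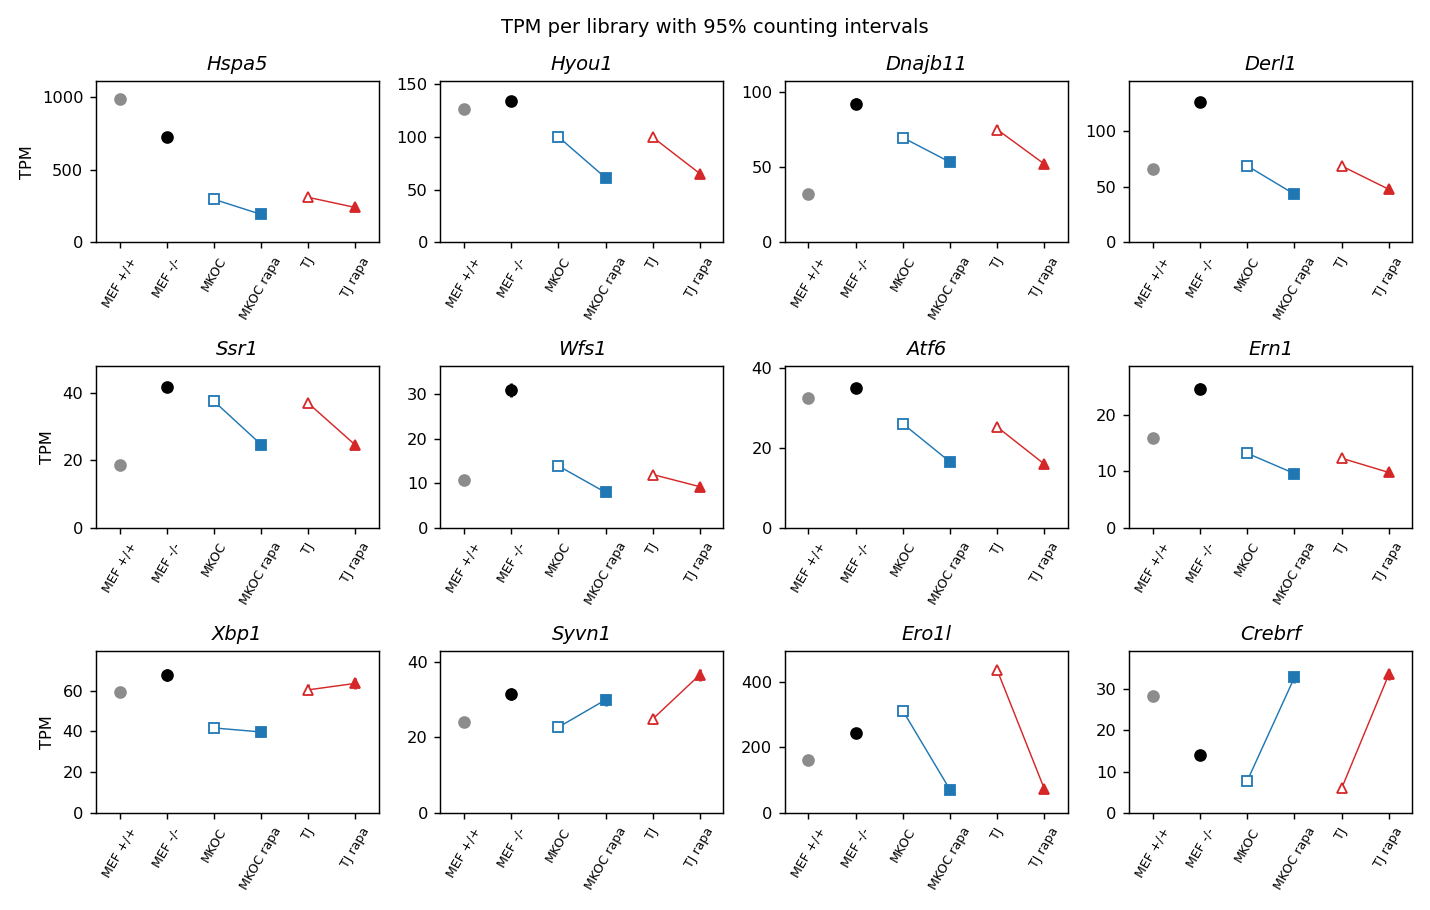
TPM of 12 genes in each of the 6 libraries, with 95% intervals for counting error only, and lines joining the untreated and rapamycin libraries of a kidney line. Hyou1, Atf6, Derl1 and Ssr1 fall by similar steps in both lines, Syvn1 rises, Xbp1 is higher in both TJ libraries than in both MKOC libraries, and Ero1l and Crebrf, chosen on the response, move most.

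The rapamycin response was also read by promoter element. Of the 11 tested genes with an ERSE or ERSE-II, 4 were lower (Hspa5, Calr, Dnajb11 and Herpud1), 2 were higher (Syvn1 and Ero1lb) and 5 did not pass, with a median log2 change of -0.11. Of the 14 tested genes with a promoter and neither element, 5 were lower (Pdia4, Ern1, Sel1l, Ssr1 and Wfs1) and the other 9 did not pass, with a median of -0.18. The shares that were lower were 36.4% and 35.7%, against 17.4% of all genes, and the shares that were higher were 18.2% and 0%, against 17.5%. The difference between these groups was not tested. Hyou1, Atf6, Derl1 and Sec61a1, all lower with rapamycin, were not matched to a promoter.

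Most members were read from a single main transcript, which held at least 80% of the gene's estimated counts in every library for 27 genes, and 11 genes were listed with 1 transcript. The other 6 were Herpud1, Syvn1, Derl2, Hyou1, Sel1l and Os9. The Herpud1 transcript ENSMUST00000161576 took 70.3% of the gene's counts in untreated and 77.0% in treated MKOC cells, and 68.6% and 75.1% in TJ cells. The Syvn1 transcript ENSMUST00000134667 took 70.6% and 66.4% in MKOC cells and 76.6% and 63.6% in TJ cells. In Herpud1 and Syvn1 the share of the main transcript moved the same way in both lines. In Hyou1, Sel1l and Os9 it was higher with rapamycin in MKOC and lower in TJ cells. The differences were 4.38 and -7.41 percentage points in Hyou1. In Derl2, the transcript with the most counts over all 6 libraries, ENSMUST00000143850, had a lower share with rapamycin in both lines. ENSMUST00000171041 held more in each kidney library, at 41.7% and 48.3% in untreated and treated MKOC and 48.0% and 48.2% in TJ cells. The shares are Kallisto's division of reads between similar transcripts and were not tested.

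Other genes of the pathway were read from 7 lists. Of the 13 genes of the PERK arm with the targets of ATF4, 11 were lower and 1 was higher with rapamycin. Over all genes tested these shares were 17.4% and 17.5%. The list had a median log2 change of -1.56. Its 3 largest changes were in Ddit3 (CHOP), from 199.7 to 24.1 TPM in MKOC cells and from 178 to 27.4 TPM in TJ cells (log2 change -2.87, adjusted p = 1.79e-06 by edgeR), in Trib3, a pseudokinase induced by CHOP, from 218 to 35.9 TPM in MKOC cells and from 179.8 to 28.9 TPM in TJ cells (log2 change -2.62, adjusted p = 8.14e-07), and in the stress factor Atf3, from 41.7 to 14.2 TPM in MKOC cells and from 54.1 to 14.1 TPM in TJ cells (log2 change -1.82, adjusted p = 1.54e-05). The gene that was higher was Eif2ak3, which encodes PERK itself (log2 change 0.32, adjusted p = 0.0467), chosen for mention after its value was seen.

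Among 30 further genes of the translocon, signal peptidase and oligosaccharyltransferase, 15 were lower and 1 was higher, with a median of -0.28. Over all genes tested, 17.4% were lower and 17.5% were higher. Tram1, a membrane protein beside the channel, fell from 13.7 to 7.91 TPM in MKOC cells and from 12.8 to 8.63 TPM in TJ cells (log2 change -0.70, adjusted p = 0.00325 by edgeR). Sec61a2, a second form of the pore, fell from 45.5 to 37.6 TPM in MKOC cells and from 37.8 to 27.7 TPM in TJ cells. Its fall in counts was larger than in TPM, with -0.56 in MKOC and -0.79 in TJ cells (fitted log2 change -0.67, adjusted p = 0.0018 by edgeR). Ostc, an oligosaccharyltransferase subunit, fell from 102 to 66.7 TPM in MKOC cells and from 111 to 72.6 TPM in TJ cells (log2 change -0.62, adjusted p = 0.00183). Of 25 further ERAD genes tested, 7 were lower and 1 was higher, with a median of -0.14; Fbxo6, a glycoprotein-binding F-box protein, was the one that rose (log2 change 0.81, adjusted p = 0.000754), and Vimp and Ufd1l, partners of the segregase VCP, fell (-0.51 and -0.45). Hm13 and Fam8a1 of this list were not analysed here.

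The remaining lists were more mixed. Over all genes tested, 17.4% were lower and 17.5% were higher, and the further folding enzymes and lectins lay under both shares. Of 30 further folding enzymes and lectins, 2 were lower and 2 were higher: Uggt2, a glucosyltransferase that senses folding of glycoproteins, rose (log2 change 1.11, adjusted p = 0.000537), as did Sdf2 (0.60), and Serp1, a protein of the translocon, fell (log2 change -0.80, adjusted p = 0.000252). Of 10 further sensors and related factors, 4 were higher and 1 was lower. The cell death genes Bcl2l11 (BIM) and Bbc3 (PUMA) rose with log2 changes of 1.17 and 1.11, and Nfe2l1, an ER-anchored factor of proteasome genes, fell with -0.63. In COPII and ER-Golgi transport, 7 of 23 genes were lower and 3 higher, with the Golgi tether Golgb1 at 0.96 and the cargo receptor Lman2 and the coat subunit Sec23b both at -0.54. Cytosolic and mitochondrial heat shock chaperones had 6 of 16 lower and 4 higher, with Hspd1, the mitochondrial Hsp60, at -0.98. The near-identical genes Hspa1a and Hspa1b rose by 2.80 and 1.30 from low levels, 0.289 and 2.26 TPM in untreated MKOC cells, and their reads can be shared between the copies.

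**Figure D4:**
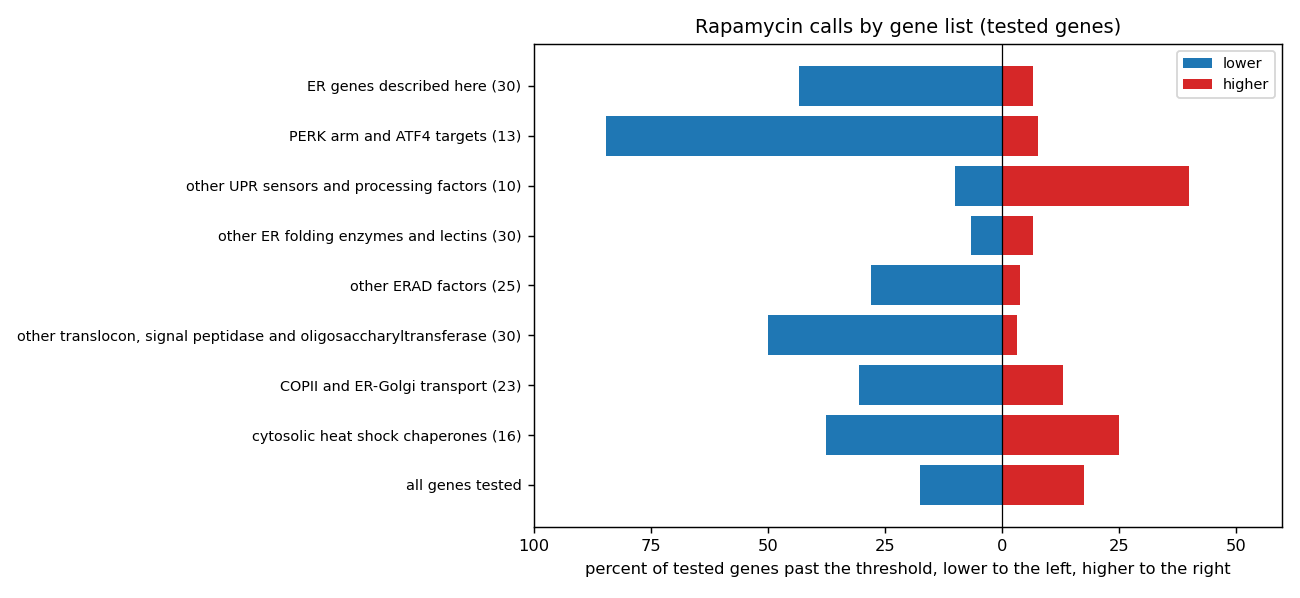
Percent of the tested genes of each list (number in parentheses) that were lower (left) or higher (right) with rapamycin at an adjusted p under 0.05 by edgeR, with all genes tested at the bottom. The 33-gene list has 43.3% lower and 6.67% higher against 17.4% and 17.5% of all genes, and the PERK and ATF4 list has 11 of 13 lower.

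TJ cells, which are tumor-derived, were compared with MKOC cells in the same model. Xbp1 was the only member of 32 that differed at an adjusted p under 0.05, against 8.79% of all genes, of which 5.47% were higher and 3.32% were lower in TJ cells. It had 60.5 and 63.7 TPM in untreated and treated TJ cells and 41.7 and 39.7 TPM in MKOC cells, with no overlap between the lines (log2 difference 0.60, standard error 0.11, adjusted p = 0.00861 by edgeR). Of the 32 genes, 8 lay below 0, against 51.9% of all genes, and the median log2 difference was 0.11 against -0.01 over all genes. No member was lower in TJ cells by edgeR, DESeq2 or limma, where 0 of 32 were lower at an unadjusted p under 0.05 too. By edgeR that level was passed by 11% of all genes as lower and by 11.6% as higher, and 7 of the 32 members were higher at it. Herpud1 was next, with 71.1 and 53.0 TPM in the untreated TJ and MKOC cells (log2 difference 0.36, adjusted p = 0.0747), and it passed only when genes of low counts were kept in the model. The 2 libraries of a line are 1 line under different treatments, so these p-values do not cover differences between cultures.

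The MEF libraries were compared to see whether the ER genes differ with Tsc2. With 1 library per genotype there is no replicate check and no test. TPM of all genes was shifted between them: over 7377 genes of at least 10 TPM, the median ratio of Tsc2-/- to Tsc2+/+ was 1.31 (log2 0.39), and transcripts under 300 bases took 20.9% of TPM in the Tsc2+/+ and 7.12% in the Tsc2-/- library. Log2 values below have 1 added to TPM and are given as deposited and after scaling to a median ratio of 1. As deposited, 25 of 32 members were higher in Tsc2-/- MEFs with a median of 0.36, against 0.45 over all genes. Scaled, 14 of 32 were higher and the median was -0.02, against 0.09, so the direction of the list as a whole rests on the scaling.

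At least 2-fold higher in Tsc2-/- MEFs as deposited were 5 of 32 genes (15.6%), against 25.2% of all 12771 genes, and at least 2-fold lower were 0 against 5.18%. Dnajb11 had 31.9 TPM in the Tsc2+/+ library and 91.8 TPM in the Tsc2-/- library, a log2 difference of 1.50 as deposited and 1.11 scaled. Wfs1 had 10.8 TPM in the Tsc2+/+ library and 30.9 TPM in the Tsc2-/- library (1.44 and 1.06). These were the 2 of 32 that stayed past 2-fold after scaling, where 15.8% of all genes did. The co-chaperone Sdf2l1 had 8.09 TPM in the Tsc2+/+ library and 19.2 TPM in the Tsc2-/- library (1.15 and 0.79), Sec61a1 had 102 TPM in the Tsc2+/+ library and 229.6 TPM in the Tsc2-/- library (1.17 and 0.78), and Ssr1 had 18.5 TPM in the Tsc2+/+ library and 41.8 TPM in the Tsc2-/- library (1.14 and 0.76).

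At the other end of the MEF comparison stood Crebrf, with 28.4 TPM in the Tsc2+/+ library and 14.0 TPM in the Tsc2-/- library, a log2 difference of -0.97 as deposited and -1.33 scaled. It was the only member at least 2-fold lower after scaling, against 8.21% of all genes. Hspa5 had 982 TPM in the Tsc2+/+ library and 722 TPM in the Tsc2-/- library (-0.44 and -0.83), and Pdia6 had 166 TPM in the Tsc2+/+ library and 121 TPM in the Tsc2-/- library (-0.46 and -0.85). On both scales the 2 were lower in the Tsc2-/- library. Of the sensors, Atf6 had 32.4 TPM in the Tsc2+/+ library and 35.0 TPM in the Tsc2-/- library, Ern1 had 15.9 TPM in the Tsc2+/+ library and 24.6 TPM in the Tsc2-/- library, and Xbp1 had 59.4 TPM in the Tsc2+/+ library and 67.8 TPM in the Tsc2-/- library, with scaled log2 differences of -0.27, 0.23 and -0.20. The MEF libraries also differed in markers of another cell type, since the 7 mesothelial markers summed to 2.71 TPM in the Tsc2+/+ and 533 TPM in the Tsc2-/- library. The 9 kidney epithelial markers summed to 0.253 and 77.6 TPM, with Krt19 at 0.0506 and 55.6 TPM and Krt18 at 0 and 20.6 TPM. Among the 9 fibroblast markers, which summed to 1824 and 2505 TPM, Dcn was at 7.08 and 422 TPM. Col1a2, Pdgfrb and Lum were lower in the Tsc2-/- library, with Col1a2 at 996 and 788 TPM. The part of these markers in the differences was not tested.

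**Figure D5:**
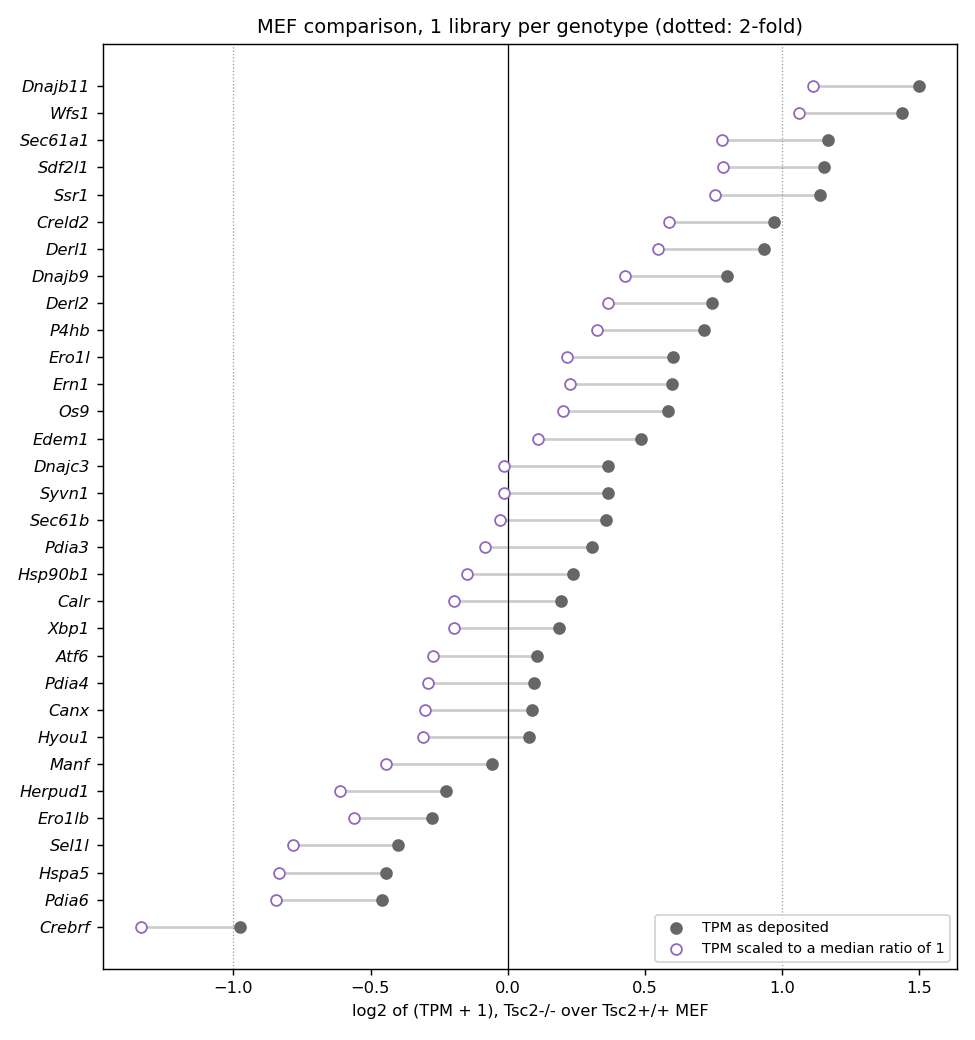
Log2 of (TPM + 1) in Tsc2-/- over Tsc2+/+ MEFs, with 1 library each, for the 32 genes of at least 1 TPM, as deposited (filled) and scaled to a median ratio of 1 (open). Dnajb11 and Wfs1 exceed 2-fold on both scales, Crebrf is lowest on both, and scaling brings the number of genes above 0 from 25 to 14.

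The MEF and rapamycin comparisons do not share libraries, and their values were set side by side. Of the 13 members that were lower with rapamycin, 10 were higher in Tsc2-/- MEFs as deposited and 6 after scaling (Ern1, Dnajb11, Derl1, Sec61a1, Ssr1 and Wfs1), against 25 and 14 of all 32 members measured in the MEFs, so their shares were close to those of the whole list. Of the members that were higher with rapamycin, Syvn1 had a MEF log2 difference of 0.36 as deposited and -0.01 scaled, and Ero1lb had -0.28 and -0.56. Across the 30 tested genes, Pearson's r between the scaled MEF log2 difference and the rapamycin log2 change was -0.15 and Spearman's rho was -0.08. These are correlations across genes, which are not independent replicates. Of the 13 members lower with rapamycin, 3 (Hspa5, Herpud1 and Sel1l) had the lower value in Tsc2-/- MEFs as deposited. After scaling 7 did, these 3 among them.

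Untreated kidney cells were set beside the MEFs as a description of cell types. In TPM, 14 of 33 members were lower in both untreated kidney lines than in both MEF libraries, against 27.5% of 13913 genes, and 5 of 33 were higher, against 33.9%. These counts include Crebrf among those below and Ero1l among those above. Both were chosen on their rapamycin response, which uses their untreated kidney values, so their places are not independent of that choice. Among genes of at least 1 TPM, the largest gaps below were in Crebrf, Hspa5 and Herpud1. Herpud1 had 162 TPM in the Tsc2+/+ library and 138 TPM in the Tsc2-/- library, and 53.0 and 71.1 TPM in untreated MKOC and TJ cells. For Hspa5 the ratio of the kidney mean to the MEF mean was 0.355. The 5 above were Ero1l, Pdia3, Ero1lb, Sdf2l1 and Manf, and Ero1l had 161 TPM in the Tsc2+/+ library and 244 TPM in the Tsc2-/- library against 312 and 437 TPM in the kidney lines. In CPM (estimated counts scaled to the library total), a scale chosen after seeing the data, 18 members were below, against 33.8% of the 13913 genes, and 3 (Pdia3, Sdf2l1 and Ero1l) were above, against 31.3%. Derl3, with at most 4 counts, was among those below on both scales. The treated values of Ero1l and Crebrf also entered the choice of these genes, so their place against the MEFs is a description only. With rapamycin, Ero1l in both kidney lines was below both MEF libraries on both scales. Crebrf, at 32.9 and 33.6 TPM with rapamycin, was above both MEF libraries in TPM but between them in CPM, where it was at 97.6 and 89.3 in treated MKOC and TJ cells, 114 in Tsc2+/+ and 36.5 in Tsc2-/- MEFs.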

How the data were processed

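Poly(A) RNA libraries (TruSeq Stranded mRNA) were sequenced as paired-end reads of 100 bases. After trimming, the authors quantified the reads with Kallisto and deposited estimated counts and TPM for 88198 transcripts in 6 libraries. The deposited ratio of the MEF libraries served only as a source of symbols. The methods name a human reference, but the identifiers are those of mouse. Estimated counts and TPM were summed per symbol; 1006 transcripts without a symbol held 0.372% to 0.468% of counts and were left out. Estimated counts lay between 22887020 and 37505004 per library, and 95% intervals and the floor of 3 counts cover counting error only.

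For the kidney libraries, rounded sums passed filterByExpr and TMM normalization before edgeR's quasi-likelihood test (edgeR 4.0.16, R 4.3.3; line and treatment as terms), with Benjamini-Hochberg adjustment over 12952 genes at 0.05. The standard error is the size of the log2 change over the root of its F statistic. The line named in the labels pairs the libraries; deviations of the libraries of a line correlated at 0.60. Called means an adjusted p under 0.05, or 2-fold for the MEFs, which were compared on log2 of TPM with 1 added. Alternatives were other normalizations, no filter, no cell line term, DESeq2 1.42.0, limma 3.58.1 on log2 TPM, each line alone, other pseudocounts, scaling and CPM. Steps were tested on simulated data. Promoters are from RefSeq (GRCm38.p6), gene positions from GENCODE M21 (GRCm38).

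The members and lists were chosen with earlier results of these data known. All 33 members are named, with values per library for those past a threshold and for Ern1, Atf6 and Xbp1. From each other list at most the 3 largest changes past the rapamycin threshold are given, plus Eif2ak3, which was added after its value was seen. Values of other members were added where a comparison used them.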

Additional observations from a re-analysis of the deposited data

Results flagged for a closer look

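Dnajc3 (p58IPK), a J-domain co-chaperone of BiP that also inhibits PERK, moved in opposite directions with rapamycin in the 2 kidney lines. Its log2 change was 0.24 in MKOC cells, from 17.6 to 21.0 TPM, and -0.15 in TJ cells, from 21.6 to 19.6 TPM. The 95% counting intervals were 0.14 to 0.34 and -0.24 to -0.06. With 1 library per line and treatment, the difference between the lines was not tested.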

How the results depend on the processing

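Without the cell line as a replicate block, 1275 genes in all, 4 members lower and 0 higher passed for rapamycin, where 10 and 2 members had an unadjusted p under 0.05. DESeq2 and limma each gave 10 members lower and 1 higher, of 3062 and 3632 genes in all, and upper-quartile normalization 10 lower and 3 higher, with Dnajb9 added, of 4477 genes. The 15 members that passed had the same direction in each line alone (without replicate 1 or 2), and none of the 15 reversed under the other models run. Between the lines, 1753 genes and 2 members passed with no filter on low counts, 622 genes with DESeq2 and 605 with limma. For the MEFs, at least 2-fold higher members numbered 3 with a pseudocount of 5 TPM and 2 with TPM scaled, with CPM, or without transcripts under 300 bases, an alternative chosen after seeing the data. At least 2-fold lower members numbered 1 under those 3 settings and with a pseudocount of 0.1 TPM. Genes past 2-fold in all numbered 3067, 3159 and 3378 under those 3 settings, 4474 with a pseudocount of 0.1 TPM, 2139 with a pseudocount of 5 TPM and 2440 at a minimum of 10 TPM. In CPM, also chosen after seeing the data, 3 members were higher in untreated kidney cells than in the MEFs. The cause of these changes was not tested. Depth limits Derl3, with at most 4 counts.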
